A study of Mus musculus with 12 samples.

Results

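The interferon-stimulated genes described here are 40 genes chosen by symbol, the classical targets of type I interferon, in RNA-seq of cultured mouse mast cells. Of the 40 genes, 36 had a row in the deposited table of 16234 genes, 31 passed the filter on low counts and were tested among 12208 genes, and 5 did not pass (*Zbp1*, *Ifit1*, *Ifit3*, *Oas2* and *Rtp4*). Expression of *Ifit3b*, *Mx1*, *Mx2* and *Ifi44* was not analysed here. The cells, known as BMMCs, were mast cells derived in culture from femur and tibia marrow with IL-3 and stem cell factor. They had been cultured for 4 to 8 weeks, and over 80% of them carried both the KIT receptor CD117 and the high-affinity IgE receptor FcϵRI. Donor mice were on a C57BL/6N background, aged 6 to 12 weeks and of both sexes, and the *Elk4* deletion was conventional, present in every cell of the animal. *Elk4* encodes an ETS-family partner of serum response factor. The 12 libraries formed 6 groups of 2, namely WT, HZ (heterozygous) and KO, each unstimulated or stimulated. Unstimulated cells were labelled as untreated, and whether they had received IgE was not stated. Stimulated cells were loaded overnight with 0.5 µg/ml anti-DNP IgE and then given 100 ng/mL DNP-HSA antigen for 1 h (IgE-DNP/HSA). The paper's methods give these doses and this time for RT-qPCR, and its RNA-seq section gives none. No label said whether replicates came from separate mice, so p-values measure the spread between these libraries, which may be technical.

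Type I interferons are secreted after viral or microbial nucleic acid is sensed, and they bind the receptor formed by IFNAR1 and IFNAR2. The receptor activates JAK kinases and a complex that contains STAT2 and IRF9 and binds the interferon-stimulated response element (ISRE) in promoters of antiviral genes. Interferon gamma acts at a different element, the gamma-activated sequence (GAS), and through the factor IRF1. In many cell types some of these genes are transcribed at a basal level without infection.

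*Elk4* (NCBI gene 13714) was not lost from the libraries labelled KO. Unstimulated libraries had 2426 and 2740 counts (WT), 3238 and 2837 counts (HZ) and 2613 and 2253 counts (KO) of it. Stimulated libraries had 2322 and 1995 counts (WT), 2139 and 1883 counts (HZ) and 1867 and 1971 counts (KO). On the log2 scale it was -0.19 ± 0.059 (SE) in KO relative to WT in unstimulated libraries (adjusted p = 0.00872) and -0.098 ± 0.061 (SE) in stimulated libraries (adjusted p = 0.208). In HZ relative to WT it was 0.24 ± 0.058 (SE, adjusted p = 0.000484) unstimulated and -0.17 ± 0.061 (SE, adjusted p = 0.0243) stimulated. WT, HZ and KO below therefore stand for the libraries labelled WT, HZ and KO. Whole-gene counts do not show whether the deleted part was transcribed. The authors reported that western blots of WT, HZ and KO BMMCs showed the deletion at the protein level. Total counts were between 29697958 and 35531667 per library. Markers of mast cells summed to between 46892 and 57594 CPM (counts scaled by library total and TMM, which sets libraries to a common level) in all libraries, with 12 of 12 markers in the table. Macrophage and monocyte markers summed to between 38.1 and 70.9 CPM and plasmacytoid dendritic cell markers to between 23.8 and 43.7 CPM (6 of 7 in the table, without *Siglech*). Dendritic cell markers (7 of 8 in the table) summed to between 7.99 and 10.4 CPM in the WT libraries and to between 3.81 and 5.39 CPM in HZ and KO, so they were higher in WT in both states. Basophil markers summed to between 929.98 and 1206 CPM. Eosinophil markers (3 of 5 in the table) summed to between 0.858 and 2.36 CPM in unstimulated and between 3.41 and 4.97 CPM in stimulated libraries. Neutrophil, T, B and NK cell markers in the table each stayed under 1 CPM in sum, and the neutrophil marker *Ltf* was at 0 in all libraries. Unstimulated HZ had the highest sums of erythroid and megakaryocyte markers (2415 and 2422 CPM, against 1513 to 1770 CPM elsewhere), of mast cell markers (56133 and 57594 CPM), of basophil markers (1203 and 1206 CPM) and of plasmacytoid dendritic cell markers (42.4 and 43.7 CPM). The part of these marker levels in any result below was not tested.

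The promoters of the members were read from RefSeq to show the element through which many such genes are induced. RefSeq's mouse table (build GRCm38.p6, a different build from that of the count files) held promoters for 30 of the 40 genes. The ISRE was searched as GAAANNGAAA on both strands in the 250 bases before each annotated start. It was present in 13 of the 30 members (43.3%), against 2.98% of the 32851 promoters in the table and 3.46% of 27025 genes. GAS, searched as TTCNNNGAA, was present in 7 members (23.3%, against 7.02% of promoters and 8.13% of genes). The kappa B motif, searched as GGGANNTTCC, was present in 2 members (6.67%, against 1.21% of promoters and 1.36% of genes). The 13 ISRE-holding members were *Gbp7*, *Gbp3*, *Gbp2*, *Isg15*, *Oas3*, *Oas1a*, *Trim30a*, *Bst2*, *Stat2*, *Rsad2*, *Ifit3*, *Ifit3b* and *Ifit1*. In *Bst2* the ISRE shared bases with a GAS.

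Stretches around the ISRE are shown for members that carry the results below, written 5′ to 3′ along the gene with the ISRE in capitals (or its reverse complement, where the motif lies on the opposite strand). The first pair rose after stimulation in WT, the next 3 fell, the following pair differed by genotype and the last pair stayed at or near 0 counts.
Isg15 (chr4:156200850-156200921, minus strand): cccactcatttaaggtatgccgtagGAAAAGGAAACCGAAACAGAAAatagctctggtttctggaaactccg
Gbp3 (chr3:142559974-142560039, plus strand): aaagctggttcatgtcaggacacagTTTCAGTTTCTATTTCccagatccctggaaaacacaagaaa
Stat2 (chr10:128270251-128270310, plus strand): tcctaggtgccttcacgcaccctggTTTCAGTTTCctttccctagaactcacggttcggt
Gbp2 (chr3:142620579-142620638, plus strand): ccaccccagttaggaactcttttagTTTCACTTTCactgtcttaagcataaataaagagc
Gbp7 (chr3:142530258-142530317, plus strand): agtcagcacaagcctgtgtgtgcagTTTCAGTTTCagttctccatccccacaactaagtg
Rsad2 (chr12:26456538-26456597, minus strand): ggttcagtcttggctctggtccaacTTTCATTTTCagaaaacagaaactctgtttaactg
Bst2 (chr8:71537562-71537627, minus strand): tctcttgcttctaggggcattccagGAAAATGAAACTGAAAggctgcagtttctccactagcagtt
Ifit1 (chr19:34640760-34640838, plus strand): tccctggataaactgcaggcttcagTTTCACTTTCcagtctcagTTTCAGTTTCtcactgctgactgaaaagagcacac
Ifit3 (chr19:34583348-34583441, plus strand): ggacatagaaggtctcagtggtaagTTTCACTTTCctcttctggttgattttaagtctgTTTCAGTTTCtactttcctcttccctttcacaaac
The *Isg15* promoter held 3 overlapping copies, *Gbp3* and *Bst2* held 2 overlapping copies each, and *Ifit1* and *Ifit3* held 2 separate copies each. Thus the element was present in members that rose, in members that fell and in members that were barely transcribed. The *Ifit3* stretch was identical to that of *Ifit3b* in 94 of 94 bases, and reads of such near copies may be split between them. A match is a description of the letters in this window and not evidence of binding.

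Interferon-stimulated genes covered a wide range of levels in BMMCs. Levels between genes were compared per length, as the FPKM values (fragments scaled by gene length and library total) deposited by the authors. Of the 36 genes with a row, 5 had a mean of at least 10 FPKM over the 12 libraries, 19 had 1 to 10 FPKM and 12 had less than 1 FPKM. Among the 31 tested members, 12 were above 7.03 FPKM, the median of tested genes. *Bst2*, which encodes tetherin, a membrane protein that holds budding virions at the cell surface, had the highest mean at 73.2 FPKM (59.7 to 96.1 over libraries). It was followed by *Ifi27* (49.3 FPKM), *Lgals3bp*, which encodes a secreted galectin-binding glycoprotein (36.7 FPKM), *Ifi35* (21.8 FPKM) and *Samd9l*, a restriction factor and growth suppressor (19.6 FPKM). The ranges of *Bst2* (59.7 to 96.1 FPKM) and *Ifi27* (40.1 to 63.3 FPKM) overlapped, as did those of *Ifi27* and *Lgals3bp* (30.4 to 50.6 FPKM) and those of *Ifi35* (18.6 to 25.3 FPKM) and *Samd9l* (13.9 to 26.4 FPKM).

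**Figure D1:**
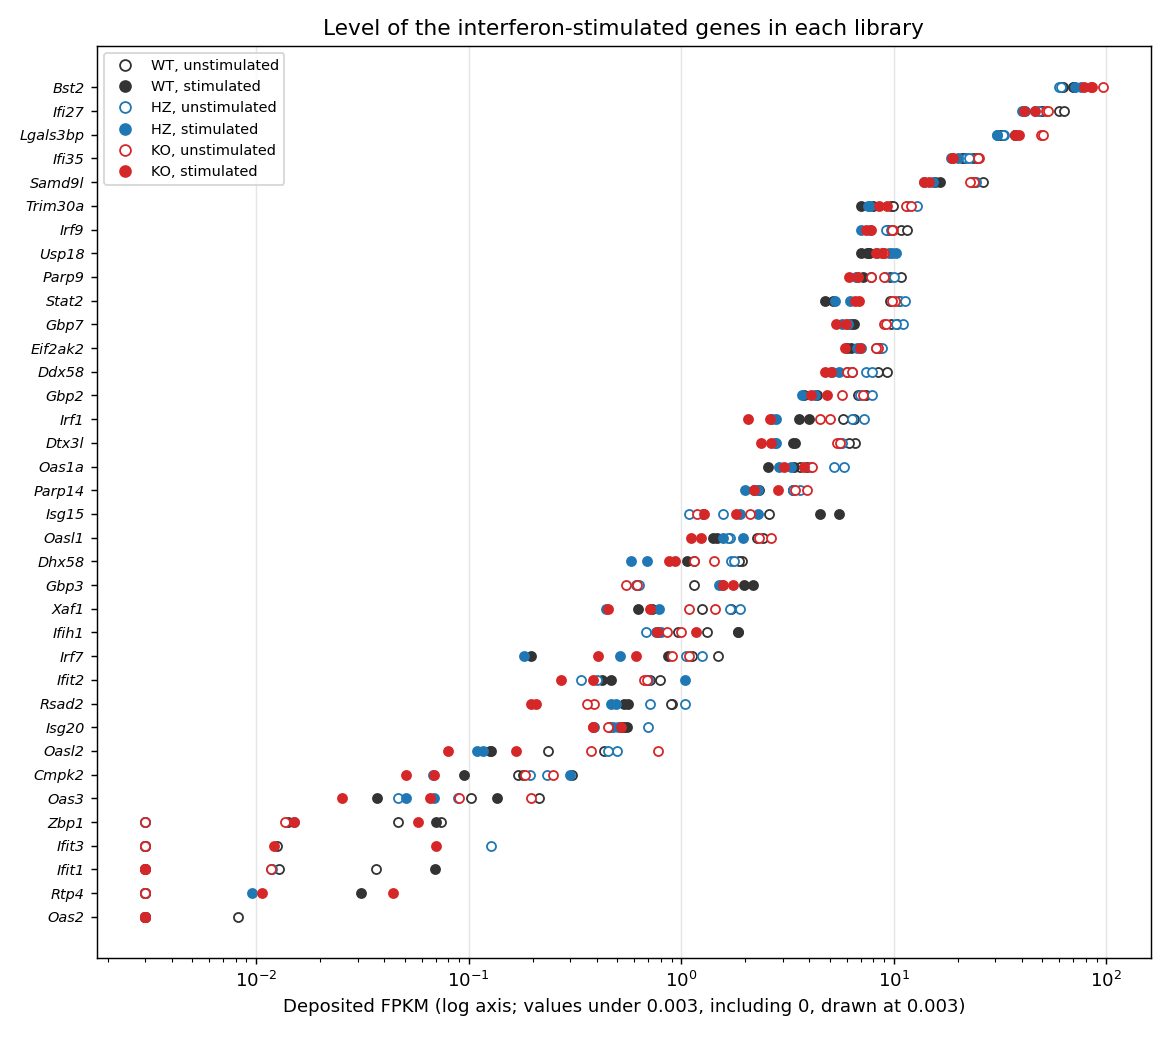
Deposited FPKM of the 36 genes with a row (log axis, values under 0.003 drawn at 0.003), 1 point per library, open for unstimulated and filled for stimulated, coloured by genotype label. *Bst2* lies at 59.7 to 96.1 FPKM, whereas *Zbp1*, *Ifit3*, *Ifit1*, *Rtp4* and *Oas2* each have libraries at 0.

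The components of the interferon-activated complex were present: *Irf9* had a mean of 9.19 FPKM and *Stat2* of 8.09 FPKM. The regulator *Irf7*, which amplifies type I interferon production, had 0.807 FPKM and 12 to 82 counts. The lowest group held several genes that are commonly among the strongest interferon targets. *Ifit1* had 0 to 6 counts, *Ifit3* 0 to 11 counts, *Zbp1* 0 to 5 counts, *Rtp4* 0 to 4 counts, and *Oas2* had 1 count in a single library and 0 in the other 11. A count of 0 allows up to 3 counts, which corresponds to 0.080 to 0.108 CPM in these libraries (counting error only). *Oas3* (4 to 33 counts) and *Cmpk2* (5 to 34 counts) passed the filter with little depth. Small differences of these genes between groups were not detectable at this depth.

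Stimulation lowered more of these genes than it raised. A gene was said to rise or fall at an adjusted p below 0.05 in edgeR's quasi-likelihood test (adjusted over all 12208 genes), and a 2-fold threshold was applied in addition where stated. Values followed by ± are log2 fold changes or log2 differences with a standard error derived from edgeR's test. It is the absolute log2 value divided by the square root of the test's F statistic. In WT, 3 of 31 members rose (9.68%, against 22.4% of all genes) and 10 fell (32.3%, against 22.9%). In HZ, 6 rose (19.4%, against 32.9%) and 15 fell (48.4%, against 31.6%). In KO, 2 rose (6.45%, against 20.4%) and 10 fell (32.3%, against 20.5%). The median log2 fold change of the 31 members was -0.26 in WT, -0.28 in HZ and -0.22 in KO, whereas over all tested genes it was -0.013, -0.0048 and -0.0068. At a 2-fold threshold, 2 members rose in WT (background 3.71%), 2 in HZ (7.02%) and 1 in KO (3.73%), and 0 fell in WT (3.06%), 5 in HZ (7.28%) and 1 in KO (2.88%). The count of 0 in WT was also 0 at 2-fold with an unadjusted p below 0.05, and 0 with DESeq2. It became 1 without WT unstimulated replicate 1 (*Xaf1*) or stimulated replicate 2 (*Irf7*), and was 4 under library totals (*Irf7*, *Oasl2*, *Stat2* and *Xaf1*) and 1 with a replicate block (*Irf7*). The KO count of 1 (*Oasl2*) became 2 without unstimulated replicate 1 or stimulated replicate 1, 0 without unstimulated replicate 2 or with at least 10 counts required in every library, and 7 under library totals. The shares of all genes at 2-fold in these alternatives were not computed.

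These directions depended in part on scaling. With library totals in place of TMM the median of all genes shifted to -0.32 in WT, -0.24 in HZ and -0.30 in KO, and 3 members rose and 23 fell in WT (6.9% and 60.6% of all genes), 3 rose and 20 fell in HZ (20% and 48.3% of all genes), and 1 rose and 22 fell in KO (7.03% and 59.8% of all genes). With DESeq2's size factors 5 rose and 9 fell in WT (23.8% and 21.6% of all genes). Under library totals, the HZ response of *Lgals3bp* turned from 0.13 to -0.10 and the KO response of *Bst2* from 0.15 to -0.14 on the log2 scale. These had passed the test under TMM. Responses that had not passed turned as well, such as those of *Lgals3bp* (0.084 to -0.22) and *Bst2* (0.13 to -0.17) in WT. *Irf9*, *Ifi27* and *Ifi35* passed as lower in all 3 genotypes under library totals (adjusted p up to 0.0262, edgeR).

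Across the genotypes, under TMM, 7 members fell in all 3 responses (*Samd9l*, *Irf1*, *Stat2*, *Parp14*, *Dtx3l*, *Gbp7* and *Xaf1*), 1 rose in all 3 (*Gbp3*), and 7 passed in none (*Oas3*, *Rsad2*, *Cmpk2*, *Isg20*, *Irf9*, *Ifi27* and *Ifi35*). Over all tested genes, 12% fell in all 3 and 12% rose in all 3. Of the 7 that fell, 4 (*Samd9l*, *Stat2*, *Dtx3l* and *Gbp7*) did so whichever library was left out. *Xaf1* lost its call in WT without unstimulated or stimulated replicate 2, where the adjusted p reached 0.173, and in KO without unstimulated replicate 2 or stimulated replicate 1. *Irf1* lost it in WT without unstimulated or stimulated replicate 1, where it reached 0.102. *Parp14* lost its call in WT without any of the 4 libraries and in KO without either replicate 2.

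**Figure D2:**
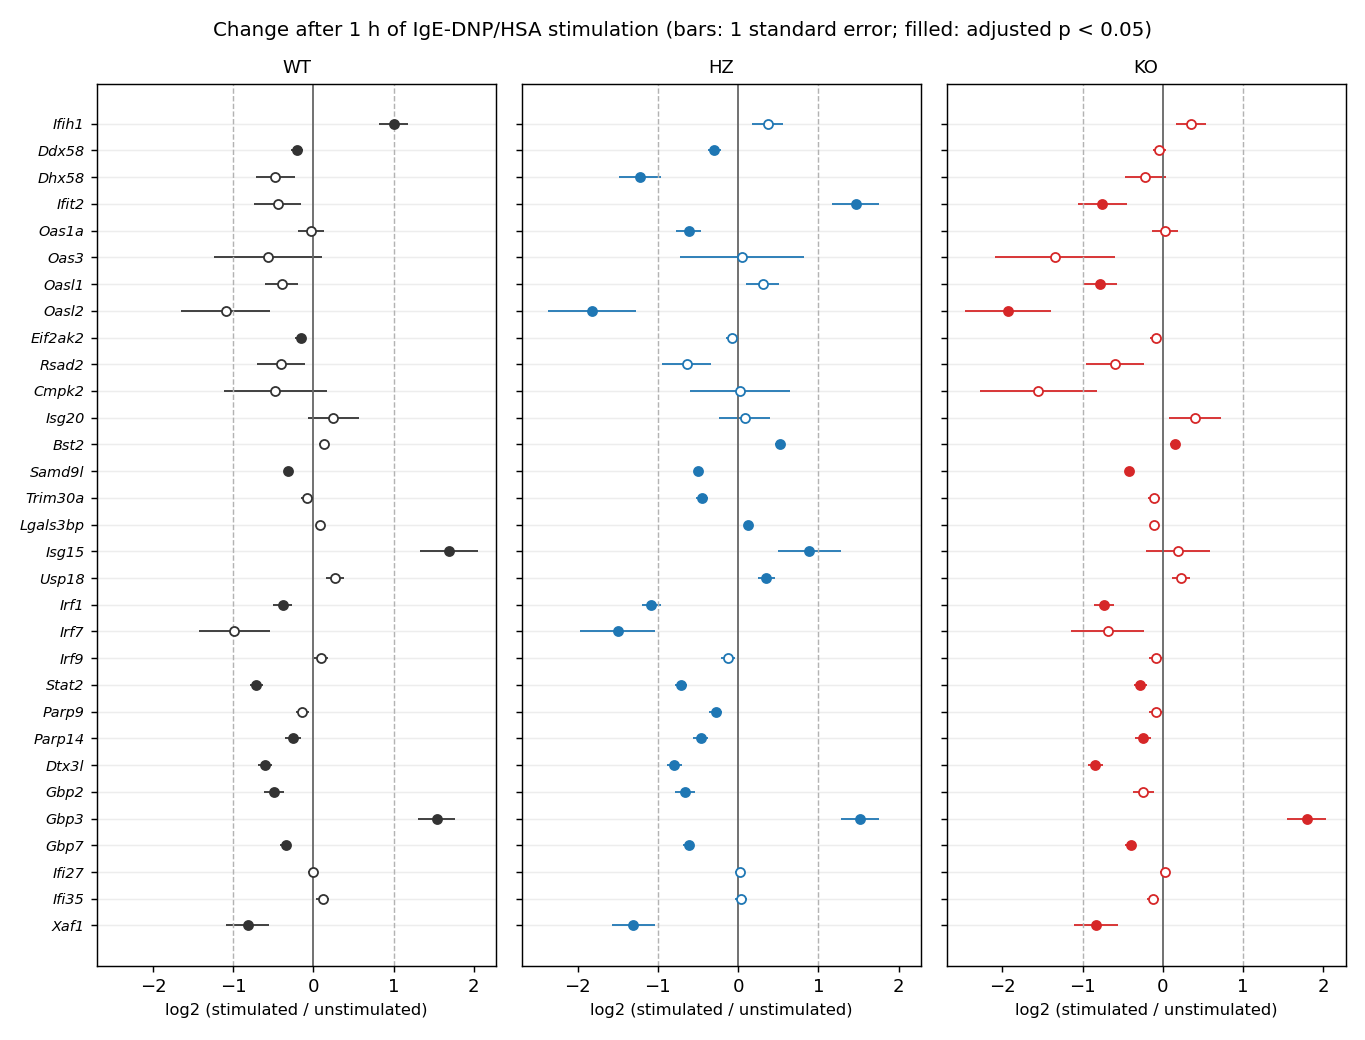
Log2 fold change after 1 h of IgE-DNP/HSA for the 31 tested members in WT, HZ and KO, with bars of 1 standard error derived from edgeR's test, filled where the adjusted p was below 0.05 and with dashed lines at 2-fold. *Gbp3* is at 1.54, 1.52 and 1.79, *Isg15* is at 1.69, 0.89 and 0.19, and most other filled points lie left of 0.

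Among the RNA sensors, *Ifih1* (NCBI gene 71586) rose in WT, whereas *Dhx58* fell in HZ and *Ddx58* fell in WT and HZ. *Ifih1* encodes MDA5, a sensor of long double-stranded RNA. In WT it had 4.86 and 6.66 CPM unstimulated and 11.5 and 11.6 CPM stimulated. In HZ it had 3.94 and 3.58 CPM unstimulated and 4.88 and 4.84 CPM stimulated, and in KO 5.12 and 4.4 CPM and 4.78 and 7.33 CPM. The stimulated WT libraries were the highest of the 12, and the KO groups overlapped. The log2 fold change was 1.00 ± 0.18 (SE, adjusted p = 6.87e-06) in WT, 0.37 ± 0.20 (SE, adjusted p = 0.101) in HZ and 0.35 ± 0.19 (SE, adjusted p = 0.144) in KO. *Dhx58*, which encodes the regulator LGP2, went from 3.83 and 3.94 CPM to 1.8 and 1.52 CPM in HZ, a log2 fold change of -1.22 ± 0.26 (SE, adjusted p = 6.01e-05). In WT it was -0.47 ± 0.24 (SE, adjusted p = 0.109), and the difference between the HZ and WT responses was -0.75 ± 0.36 (SE, adjusted p = 0.0942). *Ddx58*, which encodes the sensor RIG-I, was -0.20 ± 0.077 (SE, adjusted p = 0.0294) in WT, -0.30 ± 0.078 (SE, adjusted p = 0.000986) in HZ and -0.045 ± 0.08 (SE, adjusted p = 0.703) in KO, and its WT call was lost without unstimulated replicate 2 or stimulated replicate 1. The difference between the responses of *Ifih1* was -0.65 ± 0.26 (SE, adjusted p = 0.116) for KO minus WT and -0.63 ± 0.27 (SE, adjusted p = 0.0558) for HZ minus WT.

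The ISG15 pathway held the member with the largest rise in WT. *Isg15* (NCBI gene 100038882) encodes a ubiquitin-like modifier, and *Usp18* encodes the protease that removes it and also restrains the interferon receptor. *Isg15* had 1.75 and 0.858 CPM in unstimulated WT and 3.77 and 4.63 CPM in stimulated WT. It had 1.09 and 0.758 CPM unstimulated and 1.55 and 1.89 CPM stimulated in HZ, and 1.44 and 0.817 CPM and 1.51 and 1.08 CPM in KO. The stimulated WT libraries stood above the other 10, and the unstimulated groups of the 3 genotypes overlapped. The log2 fold change was 1.69 ± 0.36 (SE, adjusted p = 0.000117) in WT, 0.89 ± 0.39 (SE, adjusted p = 0.0454) in HZ and 0.19 ± 0.40 (SE, adjusted p = 0.747) in KO. The HZ call was lost without any of 3 of the 4 HZ libraries (unstimulated replicate 2 or either stimulated replicate). It was also lost under library totals (adjusted p = 0.137). The difference between the responses did not pass the test, at -1.50 ± 0.54 (SE, adjusted p = 0.0696) for KO minus WT and -0.80 ± 0.54 (SE, adjusted p = 0.25) for HZ minus WT. The KO minus WT difference passed without WT unstimulated replicate 1 (-2.10, adjusted p = 0.0215), without KO unstimulated replicate 2 (-1.85, adjusted p = 0.041) and under other filters on low counts, and it was -1.03 (adjusted p = 0.382) without KO unstimulated replicate 1. *Isg15* had only 25 to 138 counts per library. *Usp18* was 0.27 ± 0.11 (SE, adjusted p = 0.0507) in WT and 0.23 ± 0.11 (SE, adjusted p = 0.0936) in KO. It rose in HZ, from 13.6 and 16.2 CPM to 19.7 and 18.2 CPM (log2 0.35 ± 0.11 SE, adjusted p = 0.00418), a call lost without HZ replicate 1 of either state. The *Usp18* call was also lost under library totals (adjusted p = 0.33).

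Guanylate-binding proteins are interferon-induced GTPases that attack the vacuoles of intracellular pathogens, and the 3 members went in different directions. *Gbp3* (NCBI gene 55932) had 1.75 and 3.2 CPM in unstimulated and 6.83 and 7.59 CPM in stimulated WT. It had 1.84 and 1.79 CPM and 5.27 and 5.14 CPM in HZ, and 1.76 and 1.58 CPM and 6.11 and 5.49 CPM in KO. Each of the 6 stimulated libraries was above each of the 6 unstimulated ones. The log2 fold change was 1.54 ± 0.23 (SE, adjusted p = 1.9e-07) in WT, 1.52 ± 0.24 (SE, adjusted p = 3.73e-07) in HZ and 1.79 ± 0.24 (SE, adjusted p = 2.4e-08) in KO, and no difference between the responses was detected (log2 0.26 ± 0.33 SE, adjusted p = 0.727 for KO minus WT, and log2 -0.018 ± 0.34 SE, adjusted p = 0.977 for HZ minus WT). *Gbp7*, its neighbour on chromosome 3, fell from 49 and 51.9 CPM to 40.5 and 39 CPM in WT, a log2 fold change of -0.34 ± 0.067 (SE, adjusted p = 3.17e-05). The log2 fold change of *Gbp7* was -0.62 ± 0.067 (SE, adjusted p = 4.13e-11) in HZ and -0.40 ± 0.068 (SE, adjusted p = 3.72e-06) in KO. *Gbp2* fell from 14.9 and 16.2 CPM to 11.8 and 10.3 CPM in WT (log2 -0.49 ± 0.13 SE, adjusted p = 0.00116) and fell in HZ (log2 -0.66 ± 0.12 SE, adjusted p = 1.09e-05), and was -0.24 ± 0.13 (SE, adjusted p = 0.125) in KO. The *Gbp* genes are close paralogs, so reads could be misassigned among them.

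Of the transcription factors of the pathway, *Stat2* and *Irf1* fell in each genotype and *Irf9* passed the test in none. *Stat2* (NCBI gene 20847), the STAT specific to type I and III interferon signalling, had 42.5 and 38.2 CPM in unstimulated and 23.6 and 25.7 CPM in stimulated WT. It had 44.3 and 47 CPM and 30.1 and 25.7 CPM in HZ, and 41.3 and 39.7 CPM and 34 and 32.8 CPM in KO. No stimulated library reached the lowest unstimulated library, and the stimulated KO libraries were the highest of the stimulated ones. The log2 fold change was -0.71 ± 0.079 (SE, adjusted p = 1.95e-10) in WT, -0.71 ± 0.077 (SE, adjusted p = 4.6e-11) in HZ and -0.28 ± 0.077 (SE, adjusted p = 0.00271) in KO. *Irf1*, an activator of interferon and interferon gamma targets, had 19.5 and 17.3 CPM in unstimulated and 13.3 and 14.9 CPM in stimulated WT. In HZ it went from 19.7 and 22.5 CPM to 10.1 and 9.81 CPM (log2 -1.08 ± 0.12 SE, adjusted p = 5.71e-11), and in KO from 15.3 and 13.8 CPM to 7.66 and 9.76 CPM (log2 -0.74 ± 0.12 SE, adjusted p = 3.21e-06). In WT the change was -0.38 ± 0.12 (SE, adjusted p = 0.00568). *Irf9*, the DNA-binding subunit of the complex, was 0.093 ± 0.084 (SE, adjusted p = 0.395) in WT, -0.12 ± 0.087 (SE, adjusted p = 0.212) in HZ and -0.086 ± 0.087 (SE, adjusted p = 0.465) in KO.

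*Dtx3l* (NCBI gene 209200), an E3 ubiquitin ligase that acts in a complex with PARP9, fell in each genotype. Its level went from 30.7 and 28.5 CPM to 19.2 and 19.8 CPM in WT, from 26.8 and 27.4 CPM to 15.6 and 15.7 CPM in HZ, and from 25.4 and 26.3 CPM to 15.2 and 13.7 CPM in KO. Stimulated and unstimulated libraries did not overlap. The log2 fold change was -0.60 ± 0.089 (SE, adjusted p = 1.87e-07), -0.79 ± 0.091 (SE, adjusted p = 1.82e-10) and -0.84 ± 0.093 (SE, adjusted p = 1.47e-10) respectively. *Parp9* lies beside *Dtx3l* on chromosome 16 and was -0.14 ± 0.082 (SE, adjusted p = 0.171) in WT and -0.087 ± 0.084 (SE, adjusted p = 0.445) in KO. It fell in HZ (log2 -0.28 ± 0.083 SE, adjusted p = 0.00283), a call lost without HZ unstimulated replicate 2.

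Among the antiviral effectors, *Samd9l* fell from 114 and 129 CPM to 99.8 and 95.1 CPM in WT (log2 -0.32 ± 0.051 SE, adjusted p = 7.56e-07), and its log2 fold change was -0.50 ± 0.051 (SE, adjusted p = 5.93e-12) in HZ and -0.42 ± 0.051 (SE, adjusted p = 2.28e-09) in KO. *Ifit2*, which binds foreign RNA and blocks its translation, differed in direction between HZ and the other genotypes. It had 2.78 and 3.09 CPM in unstimulated and 2.05 and 2.25 CPM in stimulated WT, 1.61 and 1.36 CPM and 3.29 and 4.97 CPM in HZ, and 2.64 and 2.73 CPM and 1.87 and 1.32 CPM in KO. Unstimulated HZ was lower, and stimulated HZ higher, than the matching WT and KO libraries. It rose in HZ (log2 1.47 ± 0.29 SE, adjusted p = 2.44e-05), was -0.45 ± 0.29 (SE, adjusted p = 0.216) in WT, and was -0.75 ± 0.30 (SE, adjusted p = 0.0416) in KO, where the call was lost without either unstimulated replicate or stimulated replicate 2. *Ifit2* had 38 to 147 counts per library. In HZ, *Bst2* rose from 44.6 and 45.8 CPM to 62.2 and 67.2 CPM (log2 0.52 ± 0.062 SE, adjusted p = 5.98e-10). *Bst2* was 0.15 ± 0.06 (SE, adjusted p = 0.039) in KO, lost without unstimulated replicate 2 or stimulated replicate 1. *Lgals3bp* was 0.13 ± 0.049 (SE, adjusted p = 0.0214) in HZ, lost without either unstimulated replicate or stimulated replicate 2.

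The oligoadenylate synthetase family makes or resembles enzymes that make the activator of RNase L. *Oasl1* fell in KO from 5.44 and 4.76 CPM to 2.8 and 3.13 CPM (log2 -0.78 ± 0.21 SE, adjusted p = 0.00236) and was -0.40 ± 0.21 (SE, adjusted p = 0.121) in WT and 0.31 ± 0.21 (SE, adjusted p = 0.202) in HZ. *Oas1a* fell in HZ from 9.44 and 10.6 CPM to 6.09 and 6.97 CPM (log2 -0.62 ± 0.16 SE, adjusted p = 0.000728) and was -0.033 ± 0.16 (SE, adjusted p = 0.893) in WT. *Oasl2*, with 8 to 78 counts, fell in HZ (log2 -1.83 ± 0.55 SE, adjusted p = 0.00332), and in KO (log2 -1.93 ± 0.54 SE, adjusted p = 0.00319), where it lost its call without unstimulated or stimulated replicate 2. *Eif2ak2*, which encodes the double-stranded RNA-dependent kinase PKR, had between 41.6 and 51.9 CPM over all libraries, and its change in WT (log2 -0.16 ± 0.067 SE, adjusted p = 0.0494) lost its call without any of the 4 WT libraries. *Xaf1*, which encodes an apoptosis-promoting partner of XIAP, went from 3.47 and 4.72 CPM to 2.49 and 2.15 CPM in WT (log2 -0.82 ± 0.27 SE, adjusted p = 0.0101). In HZ it went from 5.38 and 4.85 CPM to 2.62 and 1.49 CPM (log2 -1.31 ± 0.27 SE, adjusted p = 3.17e-05), and in KO from 3.04 and 4.06 CPM to 1.55 and 2.43 CPM (log2 -0.83 ± 0.28 SE, adjusted p = 0.013). The stimulated libraries were the lower ones in each genotype. *Irf7* fell in HZ (log2 -1.50 ± 0.47 SE, adjusted p = 0.0049), a call lost without HZ stimulated replicate 1. *Oasl2* and *Irf7* were below the minimum of 100 counts for named genes and were named after their values were seen. In bulk RNA, fewer cells of a type and less RNA per cell cannot be told apart.

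Comparison of genotypes in unstimulated cells asked whether the labelled *Elk4* genotype shifted the basal level of these genes. In KO relative to WT, 3 of 31 members were higher (9.68%, against 22.9% of all genes) and 5 lower (16.1%, against 21.7%). In HZ relative to WT, 4 were higher (12.9%, against 25.4%) and 5 lower (16.1%, against 26%). With library totals these were 3 and 8 (21.3% and 30.4% of all genes). In KO relative to HZ, 4 were higher (12.9%, against 23.4%) and 6 lower (19.4%, against 21.8%). The members' medians were -0.13, -0.064 and -0.069, against 0.018, 0.0018 and -0.0014 over all genes. At 2-fold, 1 member was lower in KO than in WT (*Rsad2*, background 4.87%) and 1 lower in KO than in HZ (*Rsad2*, background 2.06%). None of the 31 was called higher at 2-fold in these 3 comparisons (background 2.64%, 3.83% and 1.29%) or lower in HZ than in WT (background 5.32%), by edgeR (also 0 at 2-fold with an unadjusted p below 0.05) or by DESeq2. The KO against HZ count was 0 without HZ unstimulated replicate 1 and 2 without HZ unstimulated replicate 2 (*Ifit3* in addition). The HZ against WT count of lower members was 1 (*Ifit2*) without unstimulated replicate 1 of WT or of HZ.

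In stimulated cells the KO against WT comparison had 4 members higher (12.9%, against 21.2%) and 10 lower (32.3%, against 19.2%). HZ against WT had 3 higher (9.68%, against 18.4%) and 9 lower (29.0%, against 16.5%), and both comparisons share the WT libraries. KO against HZ had 4 higher (12.9%, against 12.9%) and 2 lower (6.45%, against 12%). With library totals these were 3 and 3 (10.3% and 15.1% of all genes). The members' medians were -0.18, -0.17 and -0.0063, against 0.021, 0.023 and -0.0022 over all genes. At 2-fold, 2 members were lower in KO than in WT (*Isg15* and *Rsad2*, background 4.71%), 2 lower in HZ than in WT (*Isg15* and *Ifih1*, background 2.55%) and 2 lower in KO than in HZ (*Rsad2* and *Ifit2*, background 1.37%). By edgeR 0 members were higher at 2-fold in these comparisons (background 3.05%, 1.96% and 0.729%), as with an unadjusted p below 0.05 at that fold and with DESeq2. *Ifit2* made it 1 in HZ against WT without WT stimulated replicate 2 or HZ stimulated replicate 1.

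**Figure D3:**
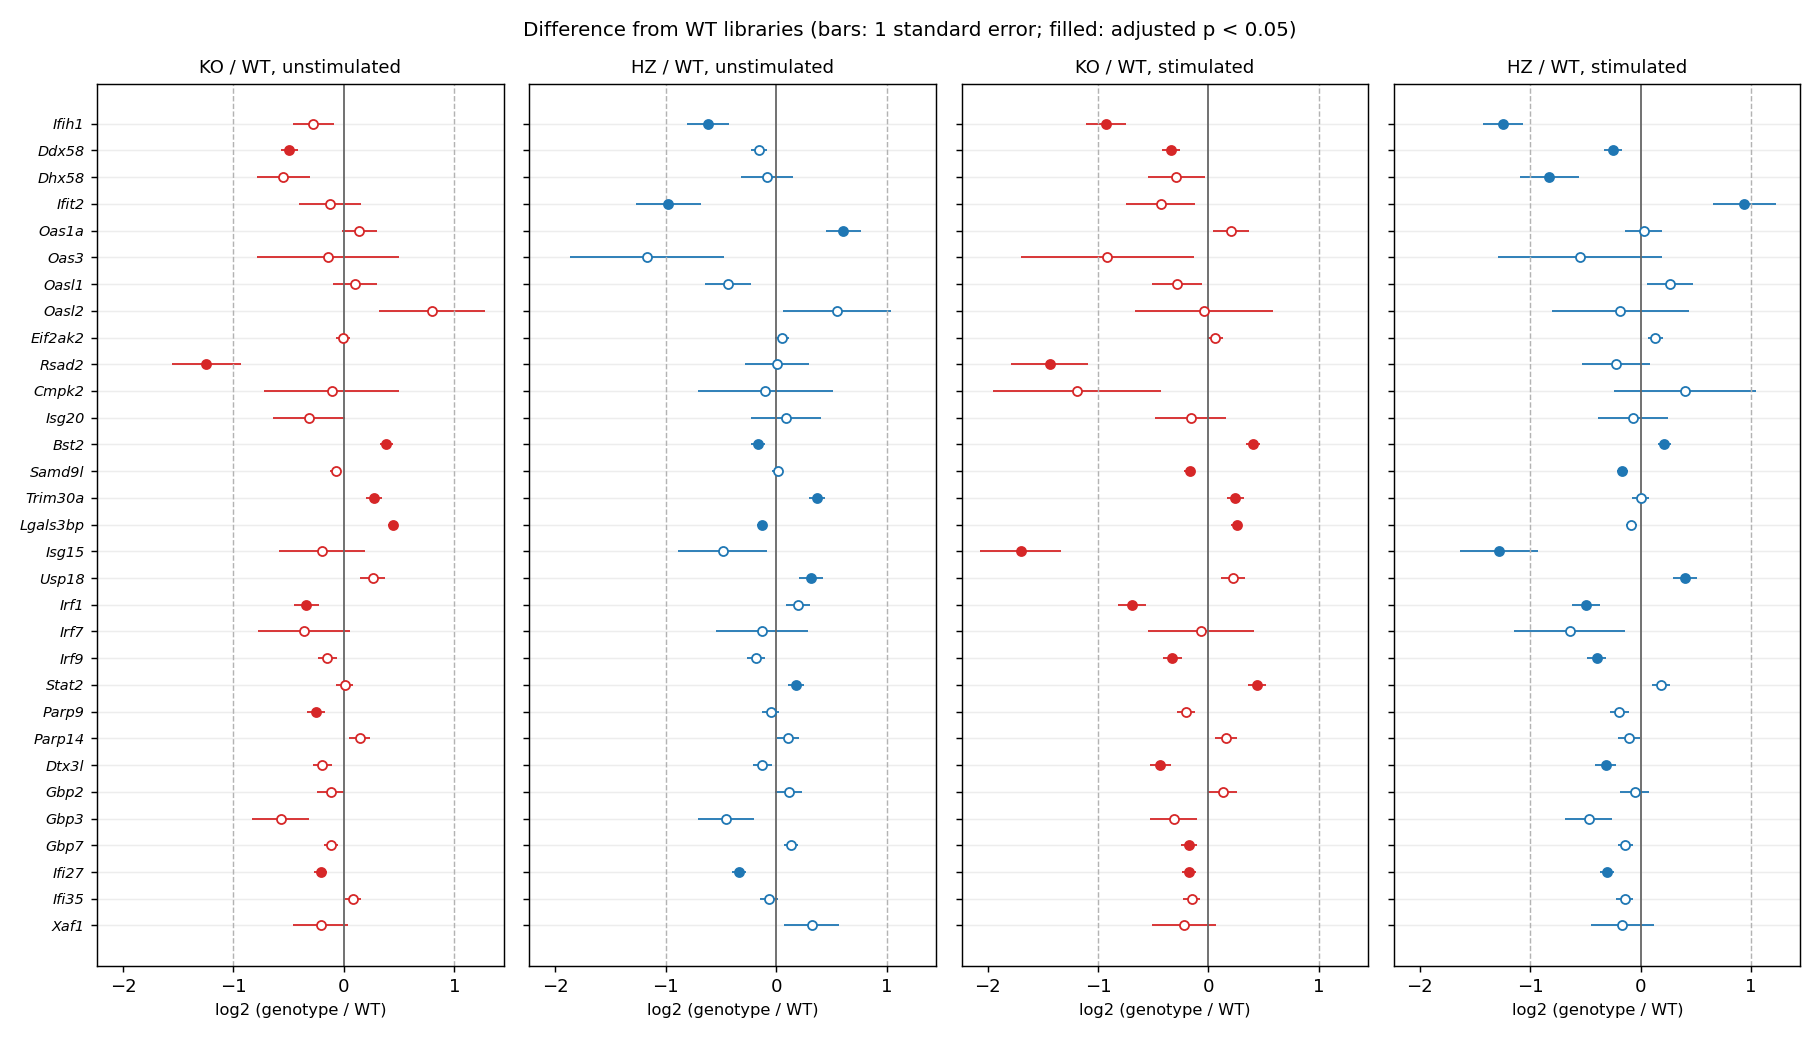
Log2 difference from WT of the 31 tested members in KO and HZ, in unstimulated and stimulated libraries, with bars of 1 standard error derived from edgeR's test, filled where the adjusted p was below 0.05 and with dashed lines at 2-fold. *Rsad2* lies beyond 2-fold in KO in both states (-1.24 and -1.44), and *Isg15* beyond 2-fold in stimulated KO and HZ (-1.70 and -1.29).

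*Rsad2* (NCBI gene 58185) encodes viperin, an antiviral enzyme that makes a chain-terminating nucleotide. It had 3.08 and 3.03 CPM in unstimulated WT, 3.66 and 2.49 CPM in HZ and 1.33 and 1.24 CPM in KO. In stimulated libraries it had 2.36 and 2.25 CPM in WT, 2.01 and 1.93 CPM in HZ and 0.827 and 0.869 CPM in KO. In each state the KO libraries lay below all WT and HZ libraries. Relative to WT, *Rsad2* was -1.24 ± 0.31 (SE, adjusted p = 0.000884) in unstimulated and -1.44 ± 0.35 (SE, adjusted p = 0.000731) in stimulated KO, and relative to HZ it was -1.25 ± 0.31 (SE, adjusted p = 0.000761) and -1.21 ± 0.35 (SE, adjusted p = 0.00754). The last call was lost without KO stimulated replicate 1 (adjusted p = 0.0545). HZ did not differ detectably from WT, at 0.01 ± 0.29 (SE, adjusted p = 0.984) and -0.22 ± 0.31 (SE, adjusted p = 0.621). *Rsad2* had 23 to 127 counts per library. Its neighbour on chromosome 12, *Cmpk2*, was -0.11 ± 0.61 (SE, adjusted p = 0.904) in unstimulated and -1.19 ± 0.76 (SE, adjusted p = 0.223) in stimulated KO relative to WT.

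Higher in KO than in WT in both states were *Lgals3bp*, *Bst2* and *Trim30a* (3 of 31 members, against 14.2% of all genes), whereas the abundant *Ifi27* was lower. *Lgals3bp* had 76.6 and 76.3 CPM in unstimulated WT, 70.2 and 69.7 CPM in HZ and 102 and 106 CPM in KO. In stimulated libraries it had 81.7 and 80.3 CPM in WT, 75.8 and 77 CPM in HZ and 94.9 and 98.6 CPM in KO. The 4 KO libraries were above the other 8. Relative to WT the difference was 0.45 ± 0.048 (SE, adjusted p = 5.83e-11) unstimulated and 0.26 ± 0.049 (SE, adjusted p = 2.52e-05) stimulated on the log2 scale. *Bst2* had 50.6 and 50.9 CPM in unstimulated WT and 70.4 and 62.2 CPM in unstimulated KO, a difference of 0.39 ± 0.061 (SE, adjusted p = 7.31e-07). In stimulated cells *Bst2* had 55.9 and 55.5 CPM in WT and 76.8 and 70.5 CPM in KO, a difference of 0.40 ± 0.062 (SE, adjusted p = 4.6e-07). *Trim30a*, a TRIM-family regulator of signalling downstream of Toll-like receptors, was higher in unstimulated KO (34.9 and 35.4 CPM in WT, 41.3 and 43.5 CPM in KO, log2 0.27 ± 0.072 SE, adjusted p = 0.00182) and in unstimulated HZ (47.6 and 43.4 CPM, log2 0.37 ± 0.072 SE, adjusted p = 2.39e-05). In stimulated KO it was 0.24 ± 0.075 (SE, adjusted p = 0.00754). *Samd9l* was lower than in WT in stimulated KO (log2 -0.17) and in stimulated HZ (log2 -0.17). Each of these calls was lost without WT stimulated replicate 1 or without stimulated replicate 2 of the other genotype.

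In unstimulated cells *Ifi27*, an interferon alpha-inducible gene of mitochondrial and nuclear membranes, had 56.6 and 59.4 CPM in WT, 45.1 and 46.9 CPM in HZ and 49.7 and 50.6 CPM in KO. The WT libraries were the highest. It was -0.33 ± 0.062 (SE, adjusted p = 1.12e-05) in HZ and -0.21 ± 0.061 (SE, adjusted p = 0.00431) in KO relative to WT. *Parp9* was -0.25 ± 0.081 (SE, adjusted p = 0.00876) in unstimulated KO relative to WT, lost without replicate 2 of WT or KO. *Irf1* was -0.34 ± 0.11 (SE, adjusted p = 0.0131) in the same comparison. *Oas1a* had 6.79 and 6.32 CPM in WT and 9.44 and 10.6 CPM in HZ, without overlap, a difference of 0.61 ± 0.16 (SE, adjusted p = 0.00104). In HZ relative to WT, *Usp18* was 0.31 ± 0.11 (SE, adjusted p = 0.0161) unstimulated and 0.40 ± 0.11 (SE, adjusted p = 0.00331) stimulated. *Stat2* (log2 0.18 ± 0.074 SE, adjusted p = 0.0419), *Bst2* (log2 -0.17 ± 0.063 SE, adjusted p = 0.0227) and *Lgals3bp* (log2 -0.13 ± 0.049 SE, adjusted p = 0.0251) each passed in unstimulated HZ but lost their calls without 2, 3 and 4 of the 4 libraries in turn, WT unstimulated replicate 2 among them. *Bst2* was 0.21 ± 0.062 (SE, adjusted p = 0.00504) in stimulated HZ, lost without HZ replicate 2.

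Relative to HZ, unstimulated KO was higher in *Lgals3bp* (log2 0.57 ± 0.048 SE, adjusted p = 4.32e-14) and *Bst2* (log2 0.55 ± 0.061 SE, adjusted p = 1.94e-10). It was lower in *Irf1* (log2 -0.54 ± 0.11 SE, adjusted p = 9.33e-05), *Ddx58* (log2 -0.34 ± 0.077 SE, adjusted p = 0.000288) and *Gbp7* (log2 -0.25 ± 0.065 SE, adjusted p = 0.00121), and these 5 calls passed whichever library was left out. *Oas1a* was -0.47 ± 0.15 (SE, adjusted p = 0.0112), lost without HZ replicate 2 or KO replicate 1, and *Oasl1* was 0.54 ± 0.20 (SE, adjusted p = 0.0279), lost without either HZ replicate or KO replicate 1. In stimulated cells *Lgals3bp* was again higher in KO than in HZ (log2 0.34 ± 0.049 SE, adjusted p = 2.41e-07). *Stat2* (log2 0.26 ± 0.08 SE, adjusted p = 0.0134) lost its call without HZ replicate 2 or KO replicate 1, *Trim30a* (log2 0.24 ± 0.075 SE, adjusted p = 0.0114) without HZ replicate 1 or KO replicate 2, and *Bst2* (log2 0.19 ± 0.061 SE, adjusted p = 0.0177) without replicate 1 of either.

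The stimulated level of *Isg15* was -1.70 ± 0.37 (SE, adjusted p = 0.000171) in KO and -1.29 ± 0.35 (SE, adjusted p = 0.00331) in HZ relative to WT, and the latter was lost without WT stimulated replicate 2 (log2 difference -1.13, adjusted p = 0.0509). For *Ifih1* the stimulated difference was -0.93 ± 0.18 (SE, adjusted p = 3.47e-05) in KO and -1.25 ± 0.18 (SE, adjusted p = 2.43e-07) in HZ. Unstimulated *Ifih1* was -0.28 ± 0.19 (SE, adjusted p = 0.238) in KO and -0.62 ± 0.19 (SE, adjusted p = 0.00652) in HZ, the HZ call being lost without WT or HZ unstimulated replicate 2. *Irf1* was lower in stimulated KO (log2 -0.69 ± 0.13 SE, adjusted p = 1.41e-05) and in stimulated HZ (log2 -0.50 ± 0.12 SE, adjusted p = 0.00124) than in WT. *Dtx3l* was -0.44 ± 0.096 (SE, adjusted p = 0.000234) in stimulated KO and -0.32 ± 0.094 (SE, adjusted p = 0.00675) in stimulated HZ, the latter lost without WT stimulated replicate 2. *Irf9* was -0.33 ± 0.087 (SE, adjusted p = 0.00195) in stimulated KO and -0.40 ± 0.086 (SE, adjusted p = 0.000223) in stimulated HZ. *Ddx58* was lower in KO than in WT in both states, with 37.3 and 40.8 CPM against 26.9 and 28.7 CPM unstimulated (log2 -0.49 ± 0.077 SE, adjusted p = 5.63e-07) and 33.1 and 34.9 CPM against 25.9 and 27.9 CPM stimulated (log2 -0.34 ± 0.08 SE, adjusted p = 0.00059). *Stat2* was the member with the largest positive difference in stimulated KO relative to WT, at 0.44 ± 0.082 (SE, adjusted p = 1.84e-05). In *Ifit2* the HZ difference from WT was -0.98 ± 0.30 (SE, adjusted p = 0.00511) in unstimulated and 0.94 ± 0.28 (SE, adjusted p = 0.00816) in stimulated libraries, and the stimulated call was lost without WT stimulated replicate 1 or HZ stimulated replicate 2. Stimulated KO relative to stimulated HZ was -1.37 ± 0.30 (SE, adjusted p = 0.000321).

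Between the states, 4 members were lower in KO than in WT in unstimulated and in stimulated cells (*Ddx58*, *Rsad2*, *Irf1* and *Ifi27*), against 14.1% of all genes, and 3 were higher in both (*Bst2*, *Trim30a* and *Lgals3bp*), against 14.2%. For HZ these were 2 lower (*Ifih1* and *Ifi27*, against 8.12%) and 1 higher (*Usp18*, against 8.13%). *Irf1* in unstimulated KO lost its call without WT replicate 1 or KO replicate 2. *Ifi27* lost its call in unstimulated KO without WT replicate 2, and in stimulated KO without either WT replicate or KO replicate 1. *Trim30a* lost it in stimulated KO without WT or KO replicate 2. *Usp18* in HZ lost it without either WT replicate or HZ replicate 2 unstimulated, and without WT replicate 1 stimulated. Over all 11 comparisons, 113 pairs of member and comparison passed the test, and 65 of them passed whichever library was left out.

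**Figure D4:**
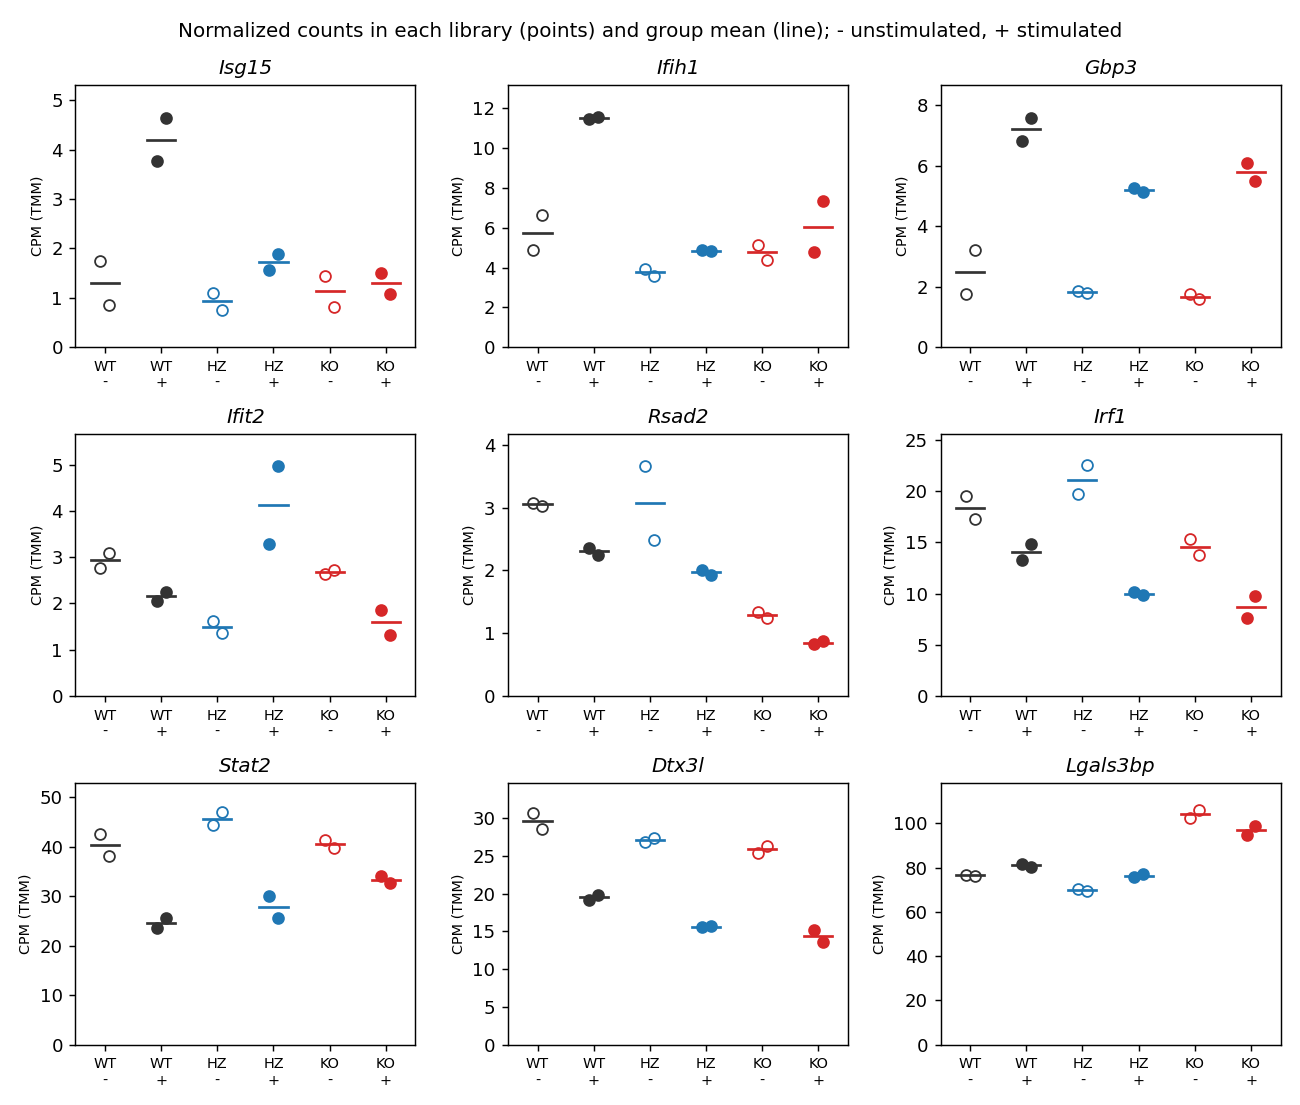
Normalized counts (CPM, TMM) of 9 members, chosen after their values were seen, in each library (points) with the group mean (line), unstimulated (-, open) and stimulated (+, filled), for WT, HZ and KO; the axes start at 0 and differ between panels. *Isg15* is highest in stimulated WT (3.77 and 4.63 CPM), *Rsad2* is lowest in KO and *Lgals3bp* is highest in KO.

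The response itself was compared between genotypes as an interaction. For KO minus WT, 1 of 31 members had a more positive response (3.23%, against 5.44% of all genes) and 0 a more negative response (against 3.83%), and at 2-fold 0 passed in either direction (background 0.491% and 0.213%, and 0 with DESeq2). At an unadjusted p below 0.05, 5 members had a more negative response, 1 of them (*Isg15*) by at least 2-fold. The share of all genes at that unadjusted threshold was not computed, so these counts are not read as a tendency of the members. The member with the more positive response was *Stat2*, with 0.43 ± 0.11 (SE, adjusted p = 0.00704), and its call was lost without WT replicate 1 of either state (adjusted p up to 0.0678). For HZ minus WT, 2 were more positive (6.45%, against 19.9%) and 5 more negative (16.1%, against 18.6%). With library totals these were 3 and 2 (25.6% and 14.1% of all genes). At 2-fold 1 was more positive (background 3.96%) and 0 more negative (background 2.02%, also 0 at 2-fold with an unadjusted p below 0.05 and 0 with DESeq2). The more positive members were *Ifit2* (log2 1.91 ± 0.41 SE, adjusted p = 0.000171) and *Bst2* (log2 0.38 ± 0.088 SE, adjusted p = 0.000413). Among those more negative were *Irf1* (log2 -0.70 ± 0.17 SE, adjusted p = 0.000658) and *Trim30a* (log2 -0.37 ± 0.10 SE, adjusted p = 0.00351), the latter lost without WT stimulated replicate 1 (adjusted p = 0.0579). *Oas1a* (log2 -0.58 ± 0.23 SE, adjusted p = 0.0389), *Samd9l* and *Gbp7* passed as well, and lost their calls without 5, 5 and 4 of the 8 libraries in turn, WT replicate 1 of either state among them.

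The rest of the pathway was read from lists of ligands, receptors, regulators and further interferon-stimulated genes, of which 110 were tested. In WT, 21 rose (19.1%, against 22.4% of all genes) and 42 fell (38.2%, against 22.9%) after stimulation. In HZ, 23 rose (20.9%, against 32.9%) and 59 fell (53.6%, against 31.6%), and in KO 19 rose (17.3%, against 20.4%) and 35 fell (31.8%, against 20.5%). In KO relative to WT the shares were near those of all genes, with 22 higher (20%, against 22.9%) and 26 lower (23.6%, against 21.7%) unstimulated, and 25 higher (22.7%, against 21.2%) and 25 lower (22.7%, against 19.2%) stimulated. Their median log2 fold changes after stimulation were -0.16 in WT, -0.30 in HZ and -0.13 in KO. Of 21 interferon ligands 9 had a row and none exceeded 14 counts in any library, the highest being *Ifnab*, the single ligand that passed the filter. *Ifnab* had 3 and 0 counts in unstimulated and 11 and 11 counts in stimulated HZ (adjusted p = 0.0257, edgeR). It passed the filter on low counts only through stimulated libraries, so this test was not independent of the filter and is not read as a rise. In WT it had 4 and 6 counts unstimulated and 14 and 4 stimulated (adjusted p = 0.412), and in KO 2 and 0 and then 2 and 1 (adjusted p = 0.731). *Ifnb1* was not analysed here. The receptor genes *Ifnar1* and *Ifnar2* had 22.5 to 44.1 CPM and 27.2 to 34.7 CPM. *Ifnar1* fell in WT from 33.4 and 33.3 CPM to 27.1 and 22.5 CPM (log2 -0.43 ± 0.082 SE, adjusted p = 2.46e-05) and in HZ from 43 and 44.1 CPM to 24.4 and 23 CPM (log2 -0.88 ± 0.081 SE, adjusted p = 2.73e-13). In KO *Ifnar1* was -0.20 ± 0.081 (SE, adjusted p = 0.0455), lost without any of the 4 KO libraries. *Ifnar2* was -0.095 ± 0.081 (SE, adjusted p = 0.362) in WT, -0.22 ± 0.08 (SE, adjusted p = 0.014) in HZ and -0.16 ± 0.081 (SE, adjusted p = 0.117) in KO, and the HZ call was lost without HZ replicate 2 of either state. *Ifngr1* fell in WT (log2 -0.43 ± 0.11 SE, adjusted p = 0.0011) and KO (log2 -0.50 ± 0.11 SE, adjusted p = 0.000213) and in HZ (log2 -0.40 ± 0.11 SE, adjusted p = 0.00141), where the call was lost without stimulated replicate 2, and *Ifngr2* had at most 19 counts in any library. Of the suppressors of cytokine signalling, *Socs3* rose from 8.18 and 8.95 CPM to 101 and 107 CPM in WT (log2 3.60 ± 0.079 SE, adjusted p = 4.07e-37), whereas *Socs1*, the inhibitor most tied to interferon receptors, fell from 67.1 and 65.3 CPM to 36.8 and 43.8 CPM (log2 -0.72 ± 0.067 SE, adjusted p = 1.14e-12). In HZ *Socs3* went from 3.69 and 3.88 CPM to 112 and 124 CPM (log2 4.96 ± 0.09 SE, adjusted p = 8.89e-41) and in KO from 7.57 and 9.78 CPM to 97.9 and 95.9 CPM (log2 3.48 ± 0.079 SE, adjusted p = 1.14e-36), and its response was larger in HZ than in WT (log2 1.36 ± 0.14 SE, adjusted p = 1.61e-11). *Socs1* fell in HZ (log2 -0.43 ± 0.066 SE, adjusted p = 1.76e-07) and in KO (log2 -0.70 ± 0.065 SE, adjusted p = 8.05e-13). *Cish*, another member of that family, rose from 379 and 380 CPM to 1469 and 1486 CPM in WT (log2 1.96 ± 0.027 SE, adjusted p = 4.18e-46). *Tmem140*, an interferon-induced membrane protein gene, fell from 25.7 and 26.6 CPM to 8.95 and 9.87 CPM in WT (log2 -1.48 ± 0.10 SE, adjusted p = 5.13e-17) and from 39.9 and 36.1 CPM to 8.32 and 7.61 CPM in HZ (log2 -2.25 ± 0.10 SE, adjusted p = 3.3e-24).

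Some interferon-inducible genes outside the 40 also differed by genotype. *Irgm1*, a GTPase that controls vacuole clearance, had 21.2 and 24.1 CPM in unstimulated and 58 and 52.9 CPM in stimulated WT, 13.3 and 11.9 CPM and 14.6 and 13.7 CPM in HZ, and 13.7 and 15.2 CPM and 12.6 and 11.3 CPM in KO. It rose in WT (log2 1.29 ± 0.09 SE, adjusted p = 6.86e-17), was 0.17 ± 0.10 (SE, adjusted p = 0.159) in HZ, and the difference between responses was -1.57 ± 0.14 (SE, adjusted p = 2.48e-12) for KO minus WT and -1.12 ± 0.14 (SE, adjusted p = 3.47e-09) for HZ minus WT. Its stimulated WT libraries were the highest of the 12. *Gbp4* had 90.8 and 91.1 CPM in unstimulated HZ and 14.1 to 28.0 CPM in the other 10 libraries, and fell in HZ on stimulation (log2 -2.31 ± 0.078 SE, adjusted p = 2.15e-29). *Gbp6* and *Gbp9* were likewise highest in unstimulated HZ, at 60.6 and 63.8 CPM and 25.7 and 27 CPM. Relative to unstimulated WT, HZ was 2.19 ± 0.077 (SE, adjusted p = 2.85e-28) for *Gbp4*, 2.67 ± 0.092 (SE, adjusted p = 1.78e-28) for *Gbp6* and 2.50 ± 0.15 (SE, adjusted p = 1.56e-19) for *Gbp9*. Unstimulated HZ was also the group with the highest erythroid and megakaryocyte, mast cell, basophil and plasmacytoid dendritic cell marker sums. A marker sum does not show that cells of that type were present, and its part in the *Gbp* levels was not tested. *Tgtp1*, a GTPase gene, had 2.96 and 3.4 CPM in unstimulated WT, 0.202 and 0.121 CPM in HZ and 0.293 and 0.31 CPM in KO (log2 -3.38 ± 0.50 SE, adjusted p = 1.66e-07 for KO relative to WT). *Ly6e*, a membrane protein that limits coronavirus entry, was higher in KO than in WT at 323 and 309 CPM in WT and 772 and 778 CPM in KO unstimulated (log2 1.29 ± 0.03 SE, adjusted p = 2.55e-35). *Ddx60*, a helicase gene that promotes RIG-I-like signalling, had 4.89 and 4.6 CPM in unstimulated WT, 1.32 and 1.76 CPM in HZ and 1.95 and 1.16 CPM in KO. Stimulated libraries had 2.69 and 4.2 CPM, 1.16 and 0.947 CPM and 0.97 and 1.01 CPM of *Ddx60* in the same order, so WT was the highest in each state. Relative to WT, KO was -1.61 ± 0.31 (SE, adjusted p = 2.33e-05) unstimulated and -1.80 ± 0.34 (SE, adjusted p = 2.56e-05) stimulated. Dendritic cell markers were also higher in WT in each state, and their part in the levels of *Ddx60*, *Tgtp1*, *Irgm1* and *Isg15* was not tested. *Trim30d*, a relative of *Trim30a*, was higher in KO than in WT, at 4.2 and 4.4 CPM in WT and 12.4 and 12.7 CPM in KO unstimulated (log2 1.55 ± 0.15 SE, adjusted p = 1.75e-12).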

How the data were processed

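BMMC RNA was measured by RNA-seq in 12 libraries. The authors deposited raw read counts per gene, without normalization, and a table of FPKM values scaled by gene length and library total. The submitters' processing notes name fastp, HISAT2, HTSeq and build GRCm39, without versions, and strand handling was not given in the sources used here.

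Counts were tested in R 4.3.3 with edgeR 4.0.16 (filterByExpr, TMM, glmQLFTest) in 1 model of 6 group means with 6 residual degrees of freedom, two-sided, adjusted by Benjamini-Hochberg over 12208 genes. To these edgeR added 38.9 prior degrees of freedom drawn from the spread of all genes, so the p-values rest largely on that shared spread. A 2-fold threshold (log2 of 1) was added where stated. The common biological coefficient of variation, edgeR's name for the spread between replicates beyond counting noise, was 4.01%. Counting noise adds to it in genes with few counts, and the spread may be technical. FPKM was used for levels between genes only. Alternatives were DESeq2 1.42.0, its size factors, library totals, other filters and thresholds, a replicate block and single libraries left out. The fit was tested on simulated data.

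Full values were given for up to 5 members per direction and comparison (3 for differences of responses) with the largest change, at least 100 counts in the higher group and no overlap, and responses for the receptors, *Socs1* and *Socs3*. A gene withheld from this text is not reported here. Up to 3 other pathway genes per direction were eligible by the same rule, of which some are given. Other values follow the order by role and were chosen after they were seen. The members and lists were chosen with earlier results of these data known. Replicates of a group differed by more than sampling noise and were counted separately.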

Additional observations from a re-analysis of the deposited data

Results flagged for a closer look

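The response of *Ifit2* differed between HZ and WT by 1.91 ± 0.41 (SE) on the log2 scale, by the edgeR interaction test (adjusted p = 0.000171). The level rose from 1.61 and 1.36 CPM to 3.29 and 4.97 CPM in HZ and went from 2.78 and 3.09 CPM to 2.05 and 2.25 CPM in WT. It was the single member with a difference between responses of at least 2-fold past the test, and the WT change alone did not pass (adjusted p = 0.216). With 2 libraries a group, single libraries that stand apart were not looked for.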

How the results depend on the processing

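Of 206 pairs of gene and comparison (members past the test, named pathway genes, receptors and regulators), 204 kept their direction under every alternative and 63 lost their call under at least 1. The 2 that turned were the HZ response of *Lgals3bp* (-0.10) and the KO response of *Bst2* (-0.14), both under library totals. In these data the median of all genes was below 0 after stimulation under that scaling. Which scaling is nearer the truth was not tested. The members called at 2-fold changed most with the threshold itself. With no fold threshold they numbered 10 lower in the WT response, 6 higher and 15 lower in HZ, 2 higher and 10 lower in KO, 3 higher and 5 lower in unstimulated KO against WT, 4 and 5 in HZ against WT, 4 and 6 in KO against HZ, 4 and 10 in stimulated KO against WT, 3 and 9 in HZ against WT, 4 higher in KO against HZ, 1 higher for the KO minus WT response, and 2 higher and 5 lower for HZ minus WT. At 1.5-fold they numbered 3 lower in the WT response, 10 lower in HZ, 6 lower in KO, 1 higher and 2 lower in unstimulated HZ against WT, 1 higher in unstimulated KO against HZ, 4 lower in stimulated KO against WT, 1 higher in stimulated HZ against WT and 1 lower for HZ minus WT. The shares of all genes at 1.5-fold were not computed, so these counts show only how the calls move with the threshold. Library totals gave 4 lower in the WT response, 7 lower in KO and 1 lower in unstimulated HZ against WT. The shares of all genes at 2-fold under library totals were not computed, so these counts were not set against a background. A minimum of 10 counts in every library gave 0 lower in the KO response, where *Oasl2* was no longer tested, and 1 lower for KO minus WT; no filter also gave 1 lower for KO minus WT. This member was *Isg15* in both, and the cause was not tested.

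Without single libraries, the counts higher and lower ranged from 2 to 3 and 0 to 1 in the WT response, 2 to 3 and 4 to 5 in HZ, and 1 and 0 to 2 in KO. They were 0 and 1 in unstimulated KO against WT, 0 and 0 to 1 in HZ against WT, and 0 and 0 to 2 in KO against HZ. In stimulated libraries they were 0 and 2 to 3 in KO against WT, 0 to 1 and 1 to 3 in HZ against WT, and 0 and 1 to 3 in KO against HZ. For differences of responses they were 0 and 0 to 1 (KO) and 1 and 0 (HZ). The replicate block gave 1 member lower in the WT response (*Irf7*), and so did the block within genotype; it moved no other count by over 1.5 times. Labels give the same replicate numbers to unstimulated and stimulated libraries of a genotype, without saying that a number marks an animal or a culture. The numbers were not treated as pairs in the main model. Replicate differences of unstimulated and stimulated libraries correlated at -0.028 in WT, 0.067 in HZ and -0.012 in KO over 9858 genes. Depth limited *Oas3*, *Cmpk2*, *Oasl2*, *Irf7* and *Isg20*, which had fewer than 100 counts in every library.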
